A study of Mus musculus with 6 samples.

Results

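The genes described here are host genes of small nucleolar RNAs (snoRNAs) and nuclear long noncoding RNAs (lncRNAs), taken from a count table of 55487 genes. They were chosen by symbol, and 10 rows matched: the host genes Gas5, Snhg1, Snhg3, Snhg5, Snhg6, Snhg8, Snhg12 and Snhg15, and the nuclear lncRNAs Malat1 and Neat1. Bulk poly(A) RNA was sequenced from 4T1, a mouse mammary carcinoma line of BALB/c origin. In 3 libraries the cells had been exposed to 10 µM cepharanthine (CEP), a bisbenzylisoquinoline plant alkaloid, for 12 h, and 3 DMSO libraries from cells given an equal volume of solvent for the same time were the controls. All libraries come from 1 cell line, and the labels do not say whether replicates were separate cultures, so p-values measure the spread between these libraries, which may be technical. The comparison asked how 12 h of CEP changed transcript levels.

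A snoRNA host gene carries snoRNAs in its introns. Splicing releases them to guide the chemical modification or processing of ribosomal RNA, while the spliced exons of several noncoding hosts are exported, bind ribosomes and are destroyed by nonsense-mediated decay. Many hosts begin with a 5′ terminal oligopyrimidine (TOP) tract, a C followed by a run of C or T, which in messenger RNAs ties translation to growth signals. Malat1 lies in nuclear speckles, which hold splicing factors. Neat1 is the scaffold of paraspeckles, nuclear bodies that retain certain RNAs and proteins.

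The start sites are shown because the TOP tract is what several host genes share in sequence. RefSeq windows (GRCm38.p6) were found for 8 of the 10 symbols, all but Snhg6 and Neat1. A tract was counted where a C followed by at least 4 bases of C or T began within 10 bases of the annotated start, on the transcribed strand. It was present in 5 of the 8 windows of the 7 host genes that have one, and in 29% of the 32851 promoter windows of all genes. Gas5 has 2 windows, and the upstream one has no tract. The windows below run from 20 bases before the start to 40 bases from it, with the tract in capitals. They are chr1:161035146-161035205 on the plus strand for Gas5 (the downstream of 2 RefSeq starts), chr4:132308658-132308717 on the plus strand for Snhg12, chr3:123508297-123508356 on the minus strand for Snhg8, chr9:88522858-88522917 on the minus strand for Snhg5 and chr4:132353647-132353706 on the minus strand for Snhg3.
Gas5: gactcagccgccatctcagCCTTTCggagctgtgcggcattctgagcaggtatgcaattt
Snhg12: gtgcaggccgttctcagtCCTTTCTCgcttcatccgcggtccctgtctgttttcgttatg
Snhg8: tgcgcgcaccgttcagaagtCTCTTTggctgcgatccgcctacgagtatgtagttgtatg
Snhg5: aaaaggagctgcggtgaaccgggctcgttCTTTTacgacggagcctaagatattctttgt
Snhg3: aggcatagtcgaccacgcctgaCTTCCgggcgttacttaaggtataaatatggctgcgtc
The tract is at or next to the start in Gas5, Snhg12 and Snhg8, and begins 9 bases into the transcript in Snhg5.

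The 3′ ends of the nuclear lncRNAs are shown because they bear on what poly(A) selection can capture. Malat1 and the long Neat1 transcript are cut by RNase P and end in a genomically encoded A-rich tract folded into a triple helix, whereas short Neat1 has an ordinary poly(A) tail. The first sequence, from Malat1-201 of GENCODE M21 (chr19:5795968-5796049, minus strand), has its longest run of A, 12 bases, in capitals. The second is the last 60 bases of the 20771-base Neat1-201 (chr19:5824708-5824767, minus strand), with runs of at least 4 A in capitals. The third is the last 60 bases of the 3004-base Neat1-202 (chr19:5842307-5842366, minus strand), with the polyadenylation signal in capitals.
Malat1: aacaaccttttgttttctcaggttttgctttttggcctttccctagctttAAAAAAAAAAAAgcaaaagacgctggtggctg
Neat1 long: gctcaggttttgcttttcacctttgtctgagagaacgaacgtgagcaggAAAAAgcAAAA
Neat1 short: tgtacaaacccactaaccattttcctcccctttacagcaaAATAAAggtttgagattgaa
The deposited count is 1 value per gene, so the short and long Neat1 transcripts cannot be told apart in it.

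Of the 10 members, 9 passed the filter on low counts, and Snhg3 did not. Malat1 and Gas5 rose with CEP, 0 members fell and 7 did not pass (adjusted p under 0.05 over 13405 genes, from the quasi-likelihood test of edgeR with the Benjamini-Hochberg method). Among all genes tested 38.2% passed, 20.1% higher and 18.2% lower. The median log2 fold change, CEP minus DMSO, was 0.23 over the 9 members tested and 0.0083 over all genes. Over the 714 other tested lncRNA rows it was 0.18. Before adjustment, 3 of the 9 members, all higher, had p under 0.05, where 6350 of the 13405 genes tested did. DESeq2 and limma-voom each called 3 higher and 0 lower. Without DMSO replicate 1 the count was 5 higher, and without CEP replicate 1 there was 1 lower.

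Depth was 15299261 to 19655010 counts per library. CEP replicate 1 differed most within its group, with chi-square per degree of freedom of 9.03 and 10.9 against CEP replicates 2 and 3, where that pair gave 2.27. The 6 epithelial markers, all present, summed to 2750 to 2810 CPM (library-size-normalised counts, TMM-scaled) in CEP and 3160 to 3240 CPM in DMSO. Of these 6, Krt8 and Krt18 fell by 0.60 and 0.26 on the log2 scale, Cldn7, Epcam and Cdh1 rose by 0.70, 0.42 and 0.39, and Krt14 did not pass (median log2 fold change 0.21). None of 5 leukocyte or 4 endothelial markers exceeded a mean of 1 CPM. Of 5 fibroblast markers, Pdgfra alone did, and Lum was at 0; the 5 summed to 85.7 to 101 CPM in CEP and 62.8 to 69.5 CPM in DMSO. Mitochondrially encoded genes held 2.43 to 2.89% of counts in CEP and 1.66 to 1.92% in DMSO. The part of these differences in the results was not tested. In bulk RNA, fewer cells that express a gene and less of its RNA per cell cannot be told apart.

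**Figure D1:**
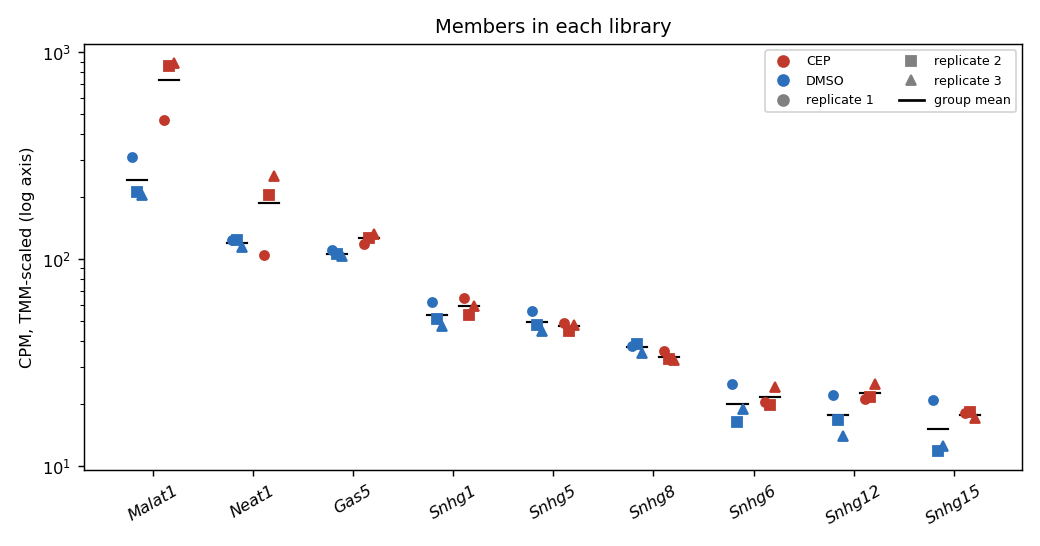
TMM-scaled CPM (log axis) of the 9 members tested, in each of the 3 CEP (red) and 3 DMSO (blue) libraries, with marker shape for the replicate number and a black line for the group mean. Malat1 and Gas5 have no overlap between groups, and for Neat1 CEP replicate 1 lies below all 3 DMSO libraries.

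Malat1 was the most abundant member in CPM and the one with the largest difference. It is ENSMUSG00000092341, chromosome 19, 5795690 to 5802672 on the minus strand, a lincRNA in the table's annotation. Values of single libraries are given in the order of their replicate numbers. Its level was 469, 854 and 883 CPM with CEP, and 310, 212 and 205 CPM with DMSO. All CEP libraries exceeded all DMSO libraries, with CEP replicate 1 the lowest treated library by far and DMSO replicate 1 the highest control. Groups without overlap were found for 2 members, both higher in CEP, and for 49.9% of all genes tested, 25.2% in the higher direction. The group means were 735 ± 231 CPM in CEP and 242 ± 58.3 CPM in DMSO (SD, n = 3 each), a log2 fold change of 1.60 ± 0.343 (SE, 95% interval 0.67 to 2.53), or 3.03-fold. The adjusted p was 0.0252 (edgeR quasi-likelihood test, Benjamini-Hochberg). By size, 0.664% of tested genes had a larger absolute log2 fold change, while by p it ranked 4292 of 13405.

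The Malat1 call needed 4 of the 6 libraries. It did not pass without CEP replicate 2 (log2 fold change 1.48, adjusted p = 0.0843), CEP replicate 3 (1.45, 0.0839), DMSO replicate 2 (1.51, 0.0902) or DMSO replicate 3 (1.49, 0.0899), nor with no low-count filter (1.59, 0.0513) or a replicate block (1.58, 0.137), in edgeR's quasi-likelihood test throughout. The log2 fold change stayed between 1.45 and 1.83 in all 15 alternative fits. DESeq2 gave an adjusted p of 1.3e-05 and limma-voom one of 1.13e-04. Malat1 took 0.0204 to 0.0312% of all counts in DMSO and 0.0462 to 0.0890% in CEP.

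The Malat1 promoter is printed because this gene moved most. The RefSeq window (GRCm38.p6, chr19:5802623-5802922, minus strand) runs from 250 bases before the start to 50 bases from it. Capitals mark TGACGT, the core of the cAMP-response element bound by CREB and ATF family factors, searched on both strands.
Malat1 promoter: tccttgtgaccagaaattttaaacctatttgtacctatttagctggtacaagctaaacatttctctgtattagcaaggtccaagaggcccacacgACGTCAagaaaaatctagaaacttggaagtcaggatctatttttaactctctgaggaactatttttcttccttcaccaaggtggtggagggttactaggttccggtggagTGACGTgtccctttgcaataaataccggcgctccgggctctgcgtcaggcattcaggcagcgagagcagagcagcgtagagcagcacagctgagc
It holds 2 matches, 1 on each strand. TGACGT was in the windows of Malat1, Gas5 and Snhg15 among the 8 members with a window, and in 7.51% of all windows. CACGTG, the E-box bound by MYC and TFEB family factors, was in that of Snhg15 only among these members and in 7.15% of all. TATAAA, searched on both strands, was in those of Snhg1, Snhg3, Snhg5 and Snhg8 and in 13.6% of all. A match describes these letters and is not a measured binding site.

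Neat1 lies beside Malat1 on the same strand (ENSMUSG00000092274, chromosome 19, 5824708 to 5845478). It stood at 104, 203 and 251 CPM with CEP, and at 123, 123 and 114 CPM with DMSO. CEP replicates 2 and 3 lay above all the controls, CEP replicate 1 below them, so the groups overlapped. The means were 186 ± 74.5 CPM and 120.0 ± 5.37 CPM (SD, n = 3 each), and the log2 fold change of 0.63 ± 0.361 (SE, 95% interval -0.35 to 1.61) did not pass (edgeR quasi-likelihood adjusted p = 0.247). Without CEP replicate 1 it did, at 0.91 (adjusted p = 0.00256), and without CEP replicate 3 it was 0.35 (adjusted p = 0.533). The spread within the treated group had a coefficient of variation of 40.1%, against 4.48% in the controls.

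The ratio of Neat1 to Malat1 counts within a library does not depend on scaling. On the log2 scale it was -2.17, -2.08 and -1.82 with CEP, and -1.33, -0.79 and -0.85 with DMSO. Every CEP library had the lower ratio. The mean was -2.02 ± 0.182 in CEP and -0.99 ± 0.298 in DMSO (SD, n = 3 each), a difference of -1.03, with an exact two-sided permutation p of 0.1, the smallest that 20 assignments allow. Of 3 such ratios computed, Malat1 to Gas5 was higher in CEP by 1.33 (exact permutation p = 0.1, no overlap) and Neat1 to Gas5 differed by 0.30 (exact permutation p = 0.4).

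**Figure D2:**
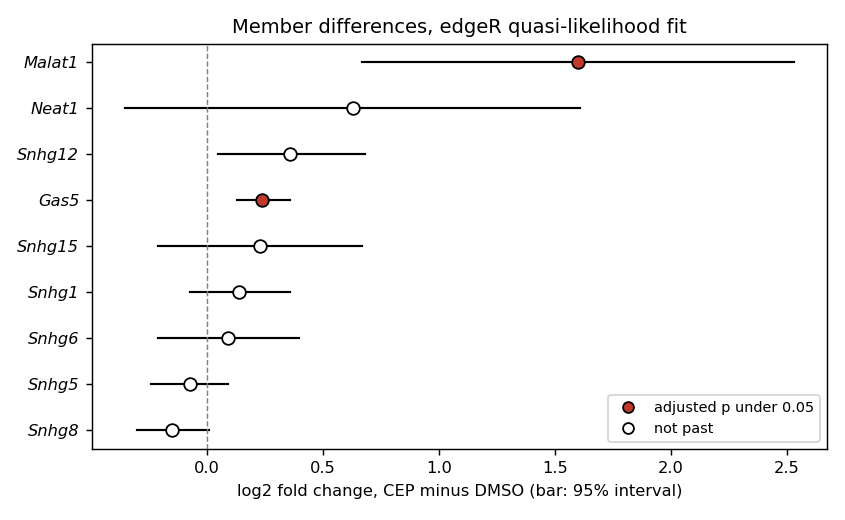
Log2 fold change, CEP minus DMSO, of the 9 members tested, with the 95% interval of the edgeR fit as bars, and filled points for adjusted p under 0.05. Malat1 (1.60) and Gas5 (0.24) are filled, and the widest intervals are those of Neat1 and Malat1.

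Gas5, whose introns hold box C/D snoRNAs and whose spliced RNA is known to accumulate when growth or translation stops, showed the other rise. It is ENSMUSG00000053332, chromosome 1, 161034422 to 161038539 on the plus strand. Its level was 118, 127 and 132 CPM with CEP, and 111, 106 and 103 CPM with DMSO. The groups did not overlap, with CEP replicate 1 again the treated library nearest to the controls. The means were 126 ± 6.82 CPM and 106 ± 4.12 CPM (SD, n = 3 each), a log2 fold change of 0.24 ± 0.0536 (SE, 95% interval 0.13 to 0.36), or 1.18-fold (edgeR quasi-likelihood adjusted p = 0.00264). The call held in all 15 alternative fits at 0.05, with adjusted p from 4.27e-06 to 0.0255. It is a small difference: 43.2% of tested genes had a larger absolute log2 fold change.

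Snhg12, which hosts Snora16a, Snora44, Snora61 and Snord99 in the table's annotation, came nearest to the threshold of the others. It stood at 21.1, 21.6 and 24.9 CPM with CEP, and at 22.0, 16.7 and 14.0 CPM with DMSO. DMSO replicate 1 lay inside the CEP range. The log2 fold change was 0.36 ± 0.143 (SE, 95% interval 0.05 to 0.68, edgeR quasi-likelihood adjusted p = 0.0647). The adjusted p was 0.0434 with DESeq2, 0.0408 with limma-voom, 0.00254 with no low-count filter and 0.00434 without DMSO replicate 1 (log2 fold change 0.56). Without DMSO replicate 3 the log2 fold change was 0.21 (edgeR adjusted p = 0.238), and the adjusted p was above 0.05 in all other alternative fits.

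Snhg15, the host of Snora9, also had its highest control value in DMSO replicate 1. Its values were 17.9, 18.2 and 17.0 CPM with CEP and 20.9, 11.8 and 12.5 CPM with DMSO. DMSO replicate 1 was the highest of all 6 libraries, and the treated libraries lay close together between it and the other controls. The log2 fold change was 0.23 ± 0.194 (SE, adjusted p = 0.379), and 0.54 without DMSO replicate 1 (edgeR quasi-likelihood adjusted p = 0.00318). Without DMSO replicate 2 or 3 it was 0.09 or 0.11 (edgeR adjusted p = 0.748 and 0.727).

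Snhg8, the host of Snora24, was the member furthest in the other direction. Its level was 35.8, 32.7 and 32.6 CPM with CEP and 38.0, 38.9 and 35.3 CPM with DMSO. CEP replicate 1 exceeded DMSO replicate 3, so the groups overlapped. The log2 fold change was -0.15 ± 0.0721 (SE, 95% interval -0.30 to 0.01, edgeR quasi-likelihood adjusted p = 0.124), and -0.21 without CEP replicate 1 (adjusted p = 0.0192).

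Snhg1 and the remaining hosts showed overlapping groups. Snhg1, whose span holds 8 snoRNA rows, ran from 53.3 to 64.6 CPM in CEP and from 47.6 to 62.1 CPM in DMSO (log2 fold change 0.14, 95% interval -0.07 to 0.36). It passed without DMSO replicate 1 (0.26, edgeR quasi-likelihood adjusted p = 0.0375), and was 0.06 both without CEP replicate 1 and without DMSO replicate 3 (edgeR adjusted p = 0.703 and 0.681). Without CEP replicate 2 it was 0.21. Snhg5, the host of Snord50a and Snord50b, ran from 44.9 to 48.9 CPM in CEP and from 45.0 to 56.2 CPM in DMSO (log2 fold change -0.07, 95% interval -0.24 to 0.09). Snhg6, the host of Snord87, ran from 19.6 to 24.1 CPM in CEP and from 16.3 to 24.8 CPM in DMSO (log2 fold change 0.09, 95% interval -0.21 to 0.40). For these genes the data leave room for differences up to the ends of those intervals.

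The control libraries were not alike for these genes. DMSO replicate 1 had the highest control value for 7 of the 9 members tested, all but Snhg8 and Neat1, where 33.2% of all genes tested had theirs in that library. The 714 other tested lncRNA rows together took 0.336% of counts in DMSO replicate 1, 0.297% in DMSO replicate 2 and 0.289% in DMSO replicate 3. They took 0.310% in CEP replicate 1, 0.367% in CEP replicate 2 and 0.385% in CEP replicate 3. The median of these rows, against the mean of the controls, was 0.01 in CEP replicate 1, 0.22 in CEP replicate 2 and 0.27 in CEP replicate 3 on the log2 scale. The order of the libraries was thus that of Malat1 within each group. Of those 714 rows 11.9% were called higher and 4.9% lower.

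**Figure D3:**
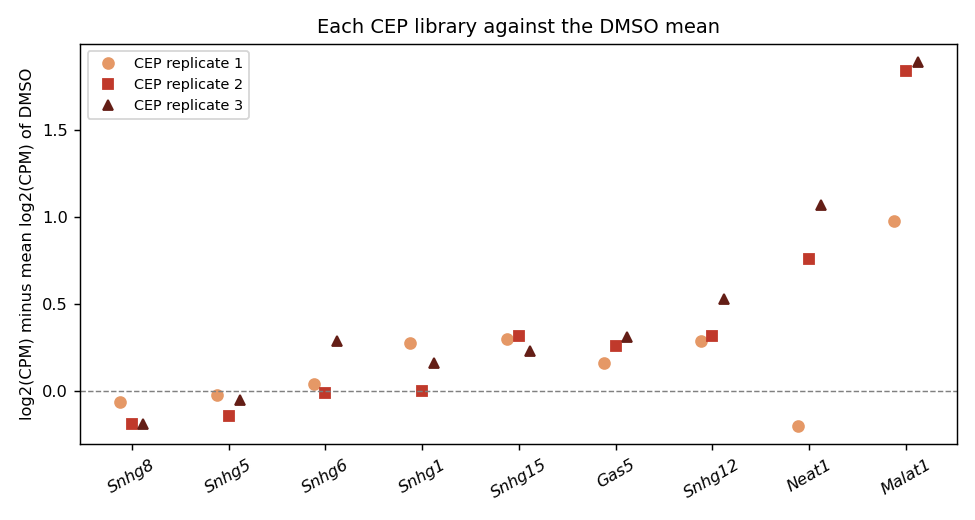
Log2 CPM of each CEP library minus the mean log2 CPM of the DMSO libraries, for the 9 members tested. CEP replicate 1 lies at 0.98 for Malat1 and -0.20 for Neat1, where CEP replicates 2 and 3 lie at 1.84 and 1.89, and at 0.76 and 1.07.

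Levels were compared between members per kilobase of the exon length given in the table. In DMSO the order was Gas5 (247 ± 9.57 CPM per kb, SD, n = 3), Snhg1 (88.7 ± 12.4), Snhg8 (83.4 ± 4.16), Snhg6 (42.3 ± 9.16), Malat1 (34.7 ± 8.35), Snhg5 (33.6 ± 3.88), Snhg15 (24.7 ± 8.30), Snhg12 (19.6 ± 4.58) and Neat1 (5.77 ± 0.259). Gas5 stood clear of the next and Neat1 of the one before, whereas Snhg1 and Snhg8, and the neighbours from Snhg6 to Snhg12, lay within each other's SD or nearly so. In CEP, Malat1 was second at 105 ± 33.1 CPM per kb, beside Snhg1 at 97.8 ± 9.36 and below Gas5 at 293 ± 15.9. The length used for Gas5 is 430 bases, that of 1 spliced transcript, while all its annotated exons in GENCODE M21, retained introns included, cover 3760 bases. That for Neat1 is the 20771 bases of the long transcript. Per-length values of both would change with the transcript chosen. The lengths used for the other hosts tested are also below their annotated exons in GENCODE M21. For Snhg1 they are 605 against 2969 bases, for Snhg12 896 against 2402 and for Snhg8 448 against 853. Snhg6 has 473 against 1146, Snhg15 611 against 1359 and Snhg5 1481 against 1730. The order above, with Gas5 first, is that of the deposited lengths only.

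Snhg3 had 0 counts in all 6 libraries, which allows up to 3 counts per library. Its annotated exons cover 986 bases in GENCODE M21, of which 135 (13.7%) also belong to exons of Rcc1, the gene of a chromatin-bound exchange factor, on the same strand. A further overlap of 705 bases (71.5%) is with Gm17300 on the opposite strand. Counters of the kind named in the submitters' processing notes can drop reads that match more than 1 gene. The strand setting is not given in the sources used here. Whether the 0 reflects dropped reads or an absence of Snhg3 RNA was not tested. Rcc1, named here for this overlap after its values were seen, had 1377 to 2237 counts per library and fell by 0.27 on the log2 scale (adjusted p = 0.00131, edgeR quasi-likelihood test).

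The snoRNAs themselves were almost unseen. The table places 30 snoRNA rows inside the 8 host genes, 10 of them in Gas5 and 8 in Snhg1, and 29 had 0 counts in every library. Of those 30 rows 28 overlap exons of their host's annotated transcripts, whose shared reads a counter may drop. Host exons overlap only 1 of the 2 snoRNA rows in Snhg3, and both rows had 0 counts. The row with counts was Snord87 in Snhg6, which no host exon overlaps, with 8, 2 and 5 counts with CEP and 8, 6 and 9 with DMSO. These counts are too few for a comparison, and poly(A) selection depletes mature snoRNAs. Snord87, singled out after its values were seen (GENCODE M21, chr1:9942463-9942549, minus strand) is shown as the only snoRNA of these hosts with reads, with its C box and D box in capitals.
Snord87: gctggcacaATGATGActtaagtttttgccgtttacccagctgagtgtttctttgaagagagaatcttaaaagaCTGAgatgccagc
All 1507 snoRNA rows of the table together took 0.005 to 0.00744% of counts. Released snoRNA levels were therefore not measured by these libraries.

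Of 13 other snoRNA host lncRNAs 9 were tested, 1 rose and 0 fell (median log2 fold change 0.19, 0 lower also before adjustment and with DESeq2 and limma-voom). The gene that rose was Zfas1, a host of box C/D snoRNAs, from a DMSO mean of 43.4 ± 4.67 CPM to 60.9 ± 6.94 CPM with CEP (SD, n = 3 each, log2 fold change 0.49 ± 0.0929, SE, edgeR quasi-likelihood adjusted p = 0.00138). Of 8 other nuclear lncRNAs 5 were tested, 1 rose and 0 fell (median 0.22, 0 lower also before adjustment and with DESeq2 and limma-voom). Firre, which helps to organise chromosome position in the nucleus, rose from 38.3 ± 1.93 CPM to 69.0 ± 20.2 CPM (log2 fold change 0.84 ± 0.237, SE, adjusted p = 0.0412). That call ended in 6 of the alternative fits, with no low-count filter, with the replicate block and without CEP replicate 2 or any 1 of the DMSO replicates (edgeR adjusted p = 0.0524 to 0.137). Without CEP replicate 1, 2 of the other hosts and 3 of the other nuclear lncRNAs were called higher. In that fit 3391 of 13650 genes tested were.

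Genes of the proteins that bind or process these RNAs were next examined. Of 16 genes of snoRNP proteins and their assembly factors, which package snoRNAs, 12 fell, 0 rose and 4 did not pass, with a median log2 fold change of -0.35. None was higher before adjustment or with DESeq2 or limma-voom. Dkc1, the pseudouridine synthase of box H/ACA particles, fell by 0.53 (SE 0.0572) from a DMSO mean of 147 ± 3.89 CPM to 102 ± 8.11 CPM with CEP. Snu13, a core protein of box C/D particles, and Znhit6, an assembly factor, fell by 0.37 and 0.55 (edgeR adjusted p = 8.09e-05 and 1.90e-04). Of all genes tested, 18.2% were called lower.

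Of 14 genes of paraspeckle proteins 9 fell, 0 rose and 5 did not pass (median -0.20). None was higher before adjustment or with DESeq2 or limma-voom. Over all genes tested, 18.2% were called lower and 20.1% higher. Pspc1, which encodes paraspeckle component 1, fell from a DMSO mean of 59.6 ± 3.32 CPM to 32.9 ± 3.86 CPM with CEP (SD, n = 3 each, log2 fold change -0.85 ± 0.0814, SE, edgeR quasi-likelihood adjusted p = 2.56e-06). Tardbp, which encodes TDP-43, fell by 0.29 (edgeR adjusted p = 4.06e-04). Of 12 genes of nuclear speckle proteins, 8 fell, 2 rose and 2 did not pass (median -0.18). Without CEP replicate 1, 1 was called higher and 8 lower. The splicing factor genes Srsf1, U2af2 and Ddx39b fell by 0.40, 0.30 and 0.26, and Srrm2, which encodes a structural protein of speckles, rose by 0.26 on the log2 scale.

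Genes of 3′ end processing and of the triple helix gave 5 falls, 0 rises and 6 that did not pass among 11 tested (median -0.35, none higher before adjustment or with DESeq2 or limma-voom). The list holds RNase P subunits, Elac2, which trims the 3′ side of tRNA-like RNAs, and Mettl16, which binds the Malat1 triple helix. Elac2, Mettl16 and the RNase P subunit gene Rpp14 fell by 0.47, 0.39 and 0.41 (edgeR adjusted p = 2.74e-04, 4.65e-04 and 5.98e-04). Nonsense-mediated decay factors numbered 20, of which 8 fell, 1 rose and 11 did not pass, with a median of -0.02. In all 45.5% of the processing list and 45.0% of the decay factors passed, where 38.2% of all genes tested did. Without CEP replicate 1, 2 decay factors were called higher and 8 lower. Smg6, the endonuclease of this decay pathway, fell from a DMSO mean of 98.0 ± 1.45 CPM to 64.0 ± 6.77 CPM with CEP (log2 fold change -0.61 ± 0.067, SE, edgeR quasi-likelihood adjusted p = 9.04e-06). Magoh and Magohb, paralogous exon junction proteins, fell by 0.43 and 0.53. Smg8, a regulator of the kinase Smg1, rose by 0.22 (adjusted p = 0.0149), but not past the test without DMSO replicate 2 or 3 (edgeR adjusted p = 0.0703 and 0.0547).

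Among 7 regulators of TOP messenger RNAs, 2 rose, 1 fell and 4 did not pass (median -0.05). Of these 7, 42.9% passed, where 38.2% of all genes tested did. Without CEP replicate 1 the counts were 2 higher and 3 lower. Cnbp, which encodes a protein that binds TOP sequences, fell by 0.45 (SE 0.0505). Eif4ebp1, which encodes an inhibitor of cap-dependent translation, rose by 0.46 ± 0.0854 on the log2 scale (SE, adjusted p = 0.00193), not past the test without CEP replicate 1 (edgeR adjusted p = 0.083). Tial1, an RNA-binding protein gene, rose by 0.24, which did not pass without CEP replicate 2 or 3 or DMSO replicate 2 or 3 (edgeR adjusted p = 0.0702 to 0.0882).

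Protein-coding snoRNA hosts were the 203 tested protein-coding genes whose span holds a snoRNA row on the same strand, taken by coordinates alone. A snoRNA row inside a gene is not a measured release of that snoRNA. For Eif2ak3, Dkc1 and Nap1l4, named below, the rows are Gm23346, Gm25520 and Gm23297, which have no snoRNA name. Of these 60 fell, 26 rose and 117 did not pass (median -0.08). In all 42.4% of them passed, against 38.2% of all genes. By direction, 18.2% of all genes tested fell and 20.1% rose, where 60 and 26 of the 203 hosts did. Eif2ak3, which encodes the stress kinase PERK, rose by 1.04 ± 0.090 (SE) on the log2 scale, and Rab3gap2, a regulator of Rab GTPases, by 0.41. Dkc1, a member also of the snoRNP list, and Nap1l4, a histone chaperone gene, fell by 0.53 and 0.41. Among them are 29 ribosomal protein genes with a numbered Rpl or Rps symbol or named Rpsa, a subset picked after values were seen. Of this subset 14 fell, 0 rose and 15 did not pass, from -0.31 to 0.07 on the log2 scale. The lowest, Rpl23a, did not pass (SE 0.613) and had 1137, 319 and 234 counts with CEP. Rplp2, a ribosomal protein gene outside that naming, did not pass either (edgeR adjusted p = 0.991). Both are named here after their values were seen. The count of hosts that fell was 95 without CEP replicate 1, 38 without CEP replicate 2, 37 without DMSO replicate 2 and 36 without DMSO replicate 3. Of all genes tested, 3514, 1791, 1845 and 1715 fell in those fits, against 2434 with all libraries. The count of hosts that rose was 17 without DMSO replicate 3, where 2020 of all genes rose, against 2691 with all libraries.

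**Figure D4:**
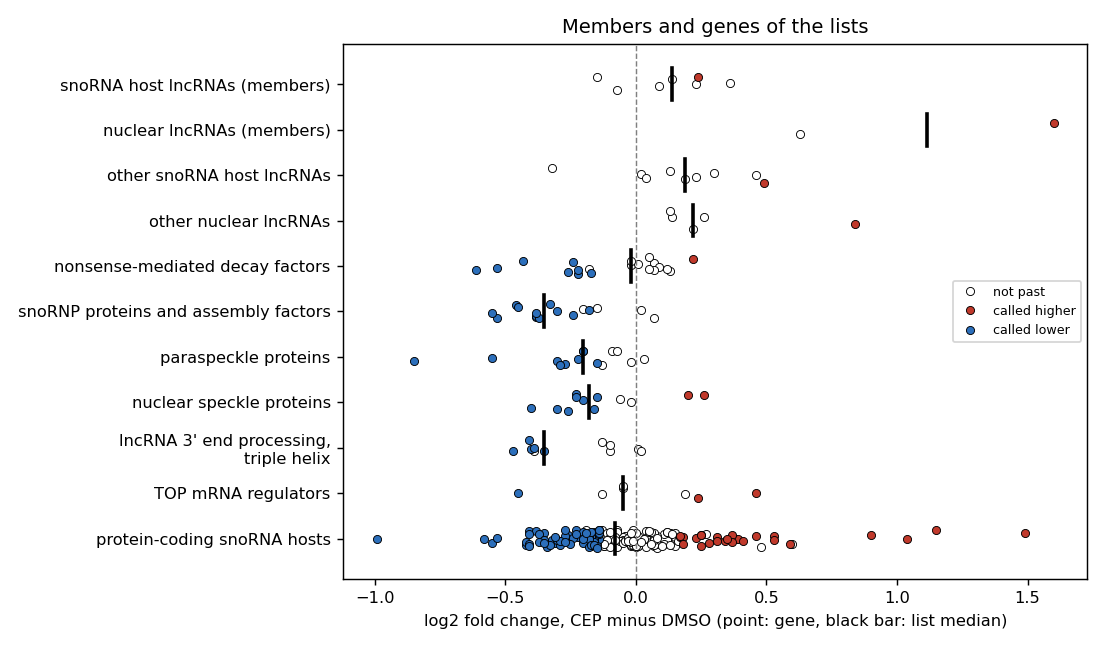
Log2 fold change, CEP minus DMSO, of each tested gene in the member classes and in 9 other lists, with the list median as a black bar and filled points for adjusted p under 0.05 (red higher, blue lower). Medians lie above 0 for the 4 lncRNA groups and below 0 for the 7 groups of protein genes.

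The genes most like each member over the 6 libraries were found among 9935 tested genes with an official symbol and at least 5 CPM on average. The measure was the root mean square difference of log2 CPM (prior count 2) after centring each gene on its own mean, and it is a description with no test. For Malat1 the nearest was Cldn1 (0.154, log2 fold change 1.65), a tight junction gene, and for Neat1 Herc6 (0.140, 0.54), an interferon-induced gene. For Gas5 it was Ccdc186 (0.0196, 0.23). For Snhg15 it was another host gene, Snhg17 (0.114, 0.23). For Snhg1, Snhg5, Snhg6, Snhg8 and Snhg12 the nearest were Zfp869, Cars2, Yrdc, Ing5 and Epb41l4b, at 0.0468, 0.034, 0.0661, 0.0201 and 0.0732.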

How the data were processed

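The labels' protocols give Trizol extraction, oligo(dT) selection and stranded libraries with dUTP. The deposited table holds raw counts of reads per Ensembl gene and library. Its headers place genes on GRCm38.p6. HISAT2, HISAT, HTSeq and DESeq2 appear in the submitters' processing notes without role or order. The strand setting, annotation release and tool versions were not given in the sources used here. The exon length of each gene was used as deposited. A library label mentions single cells, whereas the 6 columns are bulk.

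Low counts were removed with filterByExpr (at least 10 counts, 15 in total), and TMM scaling was applied. All 13405 remaining genes entered edgeR's robust quasi-likelihood test, CEP minus DMSO, without covariates, with Benjamini-Hochberg adjustment. The SE is the size of the log2 fold change divided by the root of F, and 95% intervals use the fitted degrees of freedom. Totals were 15299261 to 19655010 counts per library, and the limit for a count of 0 covers counting error only. Each library was treated as 1 replicate. Replicate pairs differed by more than sampling noise (chi-square per degree of freedom 1.81 to 10.9), which does not show whether they were separate cultures. Software was edgeR 4.0.16, DESeq2 1.42.0 and limma 3.58.1 under R 4.3.3, with Python 3.11.15. Members and lists were chosen with earlier results of these data known. Named genes are all members, up to 3 genes a direction and 4 a list by smallest adjusted p, and the gene nearest in pattern to each member. A gene that this rule names is not reported here. Overlaps used GENCODE M21, and start sites RefSeq. The alternatives were other scaling, filters and tools, a replicate block, a threshold of 0.01, protein-coding genes with the members only, and each library left out. List counts without CEP replicate 1 were added after seeing the data.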

Additional observations from a re-analysis of the deposited data

How the results depend on the processing

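Of the 9 members tested, Gas5 kept its call in every alternative fit, and the sign of Malat1, Neat1, Gas5, Snhg1, Snhg8, Snhg12 and Snhg15 held in all 15. With 1 library left out, Snhg5 ran from -0.15 to 0.02, changing sign without DMSO replicate 1 (0.02), and Snhg6 from -0.03 to 0.27, changing sign without CEP replicate 3 (-0.0035) or DMSO replicate 2 (-0.03). The count of members called higher was 1 with the replicate block and 1 at an adjusted p under 0.01, and ran from 1 to 5 with 1 library left out, the count lower from 0 to 1. Leaving out 1 library moved the protein-coding hosts called lower between 36 and 95 and those higher between 17 and 31. In the same fits, the count over all genes tested moved between 1715 and 3514 lower and between 2020 and 3391 higher. Fewer samples reduce what such fits can call, and the cause of other shifts was not tested. The Neat1 to Malat1 difference ran from -1.20 to -0.93 with 1 library left out. A replicate block cannot change its value of -1.03, because each block holds 1 library of each group. Deviations of same-numbered libraries from their group means, over genes, had correlations of -0.05, 0.02 and -0.04. CEP replicates 1 and 3 correlated best with another number. With 3 libraries per group these values cannot decide whether same-numbered libraries were handled together, and the labels do not say. The block gave 2595 genes higher and 2301 lower, against 2691 and 2434. Upper-quartile scaling gave 2387 and 2960. For low-count hosts such as Snhg6 and Snhg15 the spread between 3 libraries limits what can be seen.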
